A study of Ovis aries with 8 samples.

Results

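NPY and AGRP are the orexigenic (feeding-promoting) peptide genes of the hypothalamic arcuate nucleus, and they were followed here across 8 hypothalami of fetal sheep, 1 array per fetus. They are 2 of the 1024 genes that could be named on an Agilent sheep array of 15008 probes, and each is read by 2 probes. The pair was chosen from the treatment contrast, in which both had large differences, so their treatment differences are given as a description with no test. The 4 fetuses labelled estradiol sulphate received estradiol-3-sulphate, 1 mg per day, into the lateral ventricle of the brain from an implanted osmotic mini-pump. The 4 fetuses labelled vehicle were twins of the treated ones and had saline by the same route in 1 label, whereas another label calls them untreated. Fetuses had surgery at 120 to 127 days of gestation and hypothalami were collected at 130 to 134 days, after an infusion given as 7 to 12 days in the design and 7 to 10 days in the protocol. The labels do not tie replicate numbers to twin pairs.

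As background, neurons of the arcuate nucleus that make both neuropeptide Y and agouti-related peptide drive food intake in adult mammals. Neuropeptide Y acts through its own family of G protein-coupled receptors. Agouti-related peptide blocks the melanocortin receptors that α-MSH, a product of POMC made by neighbouring arcuate neurons, would activate. Leptin and ghrelin act on these neurons in opposite directions, and in sheep the circuit is already present before birth. Estradiol sulphate is a circulating conjugate of estradiol that tissues with steroid sulphatase can convert to free estradiol.

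The probe sequences show how far the 2 readings of a gene are separate measurements. The NPY probes are placed on a RefSeq transcript and share 57 of their 60 bases, shifted by 3 bases. The AGRP probes are placed on an expressed sequence tag, which the array design names AGRP, and share 52 of 60 bases, shifted by 8. For NPY the first 30 bases are shown, and for AGRP the whole probe, with the shared run in capitals.
NPY representative probe, first 30 bases: TGGTGATGGGAAATGAAACTTGCTCTCCAG
NPY second probe, first 30 bases: atgTGGTGATGGGAAATGAAACTTGCTCTC
AGRP representative probe: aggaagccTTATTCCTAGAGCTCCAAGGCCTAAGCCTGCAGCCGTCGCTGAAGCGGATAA
AGRP second probe: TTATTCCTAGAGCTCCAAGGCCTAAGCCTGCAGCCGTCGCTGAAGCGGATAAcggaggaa
The second probe of each gene is therefore a repeat reading of nearly the same stretch and not an independent one. The representative probe of a gene is the one with the higher mean signal over all 8 arrays.

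Hypothalamic tissue was recognisable on the arrays, with OXT (oxytocin) and POMC well above background in all 8 fetuses. The arrays shared 1 slide and 1 scan, with treated fetuses in one column and vehicle fetuses in the other, and the effects of column and treatment cannot be told apart. Arrays of treated fetuses were brighter, with a 75th percentile of processed intensity (background-subtracted fluorescence in scanner units) of 1597 to 2282, against 982 to 1633 in vehicle fetuses. Of all probes, 77.0% to 83.1% gave a reading well above background in treated fetuses, against 67.8% to 77.4% in vehicle fetuses. Values below are log2 processed intensity minus log2 of the array's own 75th percentile, which takes out that difference of brightness if it is the same for all probes. Array correlations within groups ran from 0.972 to 0.991.

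NPY was higher after estradiol sulphate, by 3.05-fold on average, and every fetus of both groups expressed it at a level well above background. At the representative probe NPY read 1.12, 2.39, 1.49 and 0.78 in estradiol sulphate fetuses 1 to 4, against 0.62, -0.83, -0.77 and 0.33 in vehicle fetuses 1 to 4. All 4 treated fetuses lay above all 4 vehicle fetuses, but the lowest treated fetus (4) exceeded the highest vehicle fetus (1) by 0.16. Means were 1.44 ± 0.69 in treated and -0.16 ± 0.75 in vehicle fetuses (SD, n = 4 each), a log2 difference of 1.61 ± 0.42 (SE). Complete separation of this kind was seen for 3.29% of the 11748 probes tested, and nothing is read from it here because NPY was chosen on this contrast.

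The second NPY probe read 1.09, 2.57, 1.59 and 0.68 in treated fetuses 1 to 4, against 0.70, -0.96, -1.01 and 0.36 in vehicle fetuses 1 to 4. Here treated fetus 4 fell just below vehicle fetus 1, by 0.02, so that 3 of 4 treated fetuses lay above every vehicle fetus. The separation of the groups at the representative probe is therefore within the difference between overlapping probes. The scanner's own error estimate for each NPY spot was close to 10.0% of its intensity. The log2 difference at the second probe was 1.71 ± 0.49 (SE), or 3.27-fold.

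AGRP differed more and varied more than NPY. The representative probe read -0.20, 1.28, 0.48 and -2.03 in treated fetuses 1 to 4, against -0.56, -5.31, -5.67 and -3.57 in vehicle fetuses 1 to 4. The groups overlapped: vehicle fetus 1 stood above treated fetus 4 by 1.47, and the other 3 treated fetuses lay above every vehicle fetus. Means were -0.12 ± 1.41 in treated and -3.78 ± 2.33 in vehicle fetuses (SD, n = 4 each), a log2 difference of 3.66 ± 1.103 (SE), or 12.7-fold. Without vehicle fetus 1 the difference was 4.74, and without vehicle fetus 3 it was 3.03.

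The low end of AGRP lay at the limit of the array. Processed intensity at the representative probe was 1495, 5022, 3176 and 391 in treated fetuses 1 to 4, against 1105, 37.9, 25.8 and 82.4 in vehicle fetuses 1 to 4. AGRP was well above background in 4 of 4 treated and 2 of 4 vehicle fetuses, with vehicle fetuses 2 and 3 not well above background at either probe. The scanner's error estimate was 25.7% and 31.2% of the intensity in those fetuses, against 10.0% to 14.0% in the other 6. The size of the AGRP difference thus depends in part on readings near background. Of these 2 readings, only that of vehicle fetus 3 (-5.67) lay below the lowest signal well above background on its array (-5.33). With it raised to that level the difference was 3.58, which leaves vehicle fetus 2 as it was. With another background correction (normexp, then quantile normalization) the difference was 2.62.

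The second AGRP probe gave values close to these. It read -0.38, 1.16, 0.45 and -2.12 in treated fetuses 1 to 4, against -0.68, -6.20, -5.58 and -3.74 in vehicle fetuses 1 to 4. Treated fetus 4 again lay below vehicle fetus 1, and 3 of 4 treated fetuses lay above every vehicle fetus. The log2 difference was 3.83 ± 1.15 (SE), or 14.2-fold. Among 11748 probes ordered by difference, the AGRP probes stood 1st and 2nd and the NPY probes 13th and 14th, the order that led to their choice.

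**Figure D1:**
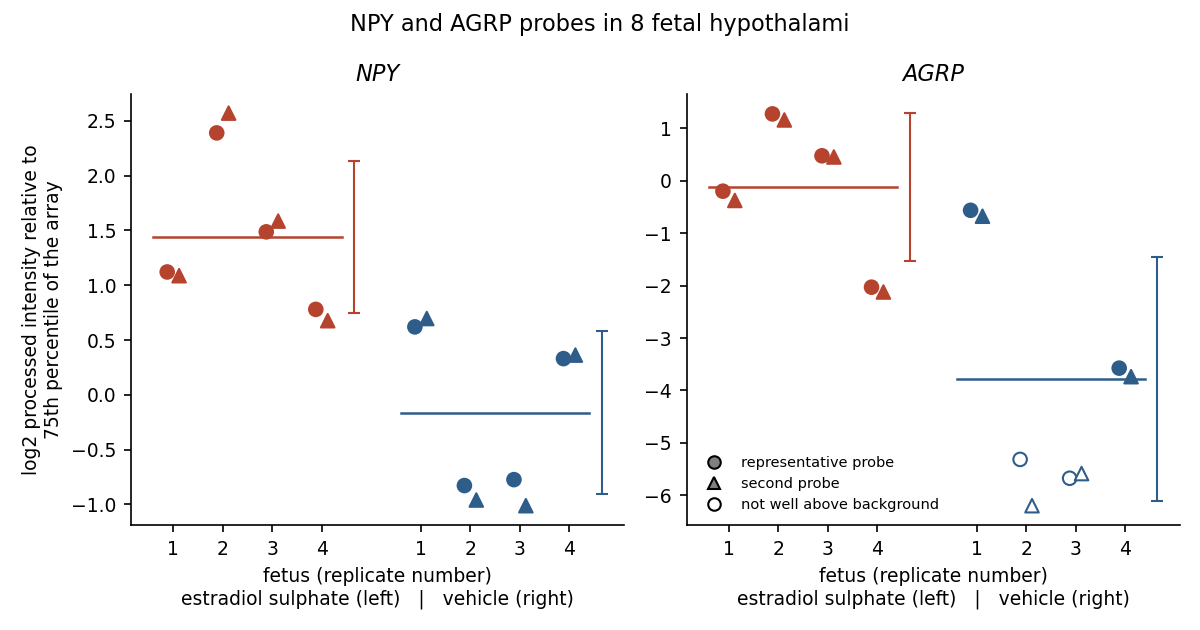
NPY (left panel) and AGRP (right panel) in each fetus, as log2 processed intensity minus log2 of the array's 75th percentile. Circles are the representative probe and triangles the second probe, with estradiol sulphate fetuses (red) left of vehicle fetuses (blue). Open symbols mark readings not well above background, seen for AGRP in vehicle fetuses 2 and 3. Horizontal lines and bars give the mean and SD of the representative probe (n = 4 each).

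Both genes varied between fetuses of the same group far more than most probes did. The within-group SD was 0.72 for NPY and 1.93 for AGRP on the log2 scale, against a median of 0.23 over the 11748 probes. In that order AGRP stood 25th and NPY 482nd. Wide variation was not particular to this pair among peptide genes. The SD in treated and vehicle fetuses was 1.52 and 0.76 for POMC, 1.89 and 1.33 for GHRH, and 0.97 and 0.96 for TAC3. For NPY it was 0.69 and 0.75, while GRP varied less (0.21 and 0.42). Between the highest and the lowest fetus of a group NPY spanned 3.05-fold in treated and 2.73-fold in vehicle fetuses. The same span was 9.88-fold for AGRP in treated fetuses and 34.6-fold in vehicle fetuses, of which the lower end lay near background.

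The fetuses that were high for NPY were also high for AGRP. In the estradiol sulphate group both genes ran in the order fetus 2, 3, 1 and 4 from high to low, at all 4 probes. In the vehicle group fetus 1 was highest and fetus 4 next at all 4 probes, while the order of fetuses 2 and 3, the lowest, differed between probes.

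Co-variation between fetuses was measured after the group means were subtracted, so that the treatment difference played no part in it. Over the 8 arrays NPY and AGRP had Pearson r = 0.89, and an exact two-sided permutation test within groups gave p = 0.00347 (adjusted p = 0.00625 over the 9 relations computed). Those 9 include both pairs of overlapping probes, and over the other 7 the adjusted p was 0.0081. Spearman's rho over ranks within groups was 0.90, with an exact permutation p = 0.0243 (adjusted p = 0.0365). With vehicle fetuses 2 and 3 sharing 1 rank for AGRP, since neither reading was well above background, rho was 0.97 (exact permutation p = 0.00694). Without estradiol sulphate fetus 2 and vehicle fetus 2, the arrays farthest from the median of NPY, r was 0.92. The test has 576 arrangements, so that the smallest p it can give is 0.00174. It takes the 8 fetuses as independent, while the vehicle fetuses were twins of the treated ones, which may make its p too small.

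AGRP moved by 2.39 log2 units for each log2 unit of NPY within groups, with slopes of 1.83 in treated and 2.87 in vehicle fetuses. The ratio of the 2 group differences, AGRP over NPY, was 2.28. These slopes are a description, and the vehicle slope includes the 2 AGRP readings near background. In bulk tissue, fewer cells of a type and less RNA per cell cannot be told apart.

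The 2 probes of each gene tracked each other closely within groups. Between the NPY probes r was 0.999 and between the AGRP probes it was 0.989. Since the probes share nearly all their bases, these values describe the repeatability of a reading and no p is given.

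POMC, the precursor of α-MSH and a product of other arcuate neurons, varied with both genes. POMC read 0.50, 3.39, 2.25 and 0.16 in treated fetuses 1 to 4, against 1.13, -0.16, -0.51 and 0.73 in vehicle fetuses 1 to 4. The groups overlapped, with treated fetuses 2 and 3 above every vehicle fetus and treated fetus 4 below 2 of them. Within groups POMC had r = 0.90 with NPY (exact permutation p = 0.00347, adjusted p = 0.00625, rho = 0.90) and r = 0.77 with AGRP (exact permutation p = 0.00694, adjusted p = 0.00893). The order of the fetuses was the same for POMC and the representative AGRP probe in the treated group. In the vehicle group it was the same for fetuses 1 and 4, while the order of fetuses 2 and 3 for AGRP rests on readings near background and turns round at the second probe. With those 2 fetuses sharing 1 rank for AGRP, rho was 0.97 (exact permutation p = 0.00694, adjusted p = 0.0243 over 7 relations).

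GHRH, the arcuate peptide that releases growth hormone, also varied with both. It read -3.35, 0.26, -0.51 and -3.35 in treated fetuses 1 to 4, against -2.84, -5.34, -5.54 and -3.53 in vehicle fetuses 1 to 4. Readings were well above background in all 4 treated but only 2 vehicle fetuses, and treated fetuses 2 and 3 lay above every vehicle fetus. Within groups GHRH had r = 0.92 with NPY (exact permutation p = 0.00694, adjusted p = 0.00893), but rho of 0.80 did not pass (exact permutation p = 0.0625, adjusted p = 0.0804). With vehicle fetuses 2 and 3, the 2 not well above background, sharing 1 rank for GHRH, rho was 0.87 (exact permutation p = 0.0347, adjusted p = 0.0486 over 7 relations). With AGRP r was 0.82 (exact permutation p = 0.00347, adjusted p = 0.00625) and rho was 0.90. Leaving out the 2 arrays farthest from the median left r between 0.72 and 0.87 for the 4 relations with POMC and GHRH.

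The brightness of an array was compared with both genes in the same way. The 75th percentile had r = 0.20 with NPY (exact permutation p = 0.648, adjusted p = 0.648) and r = 0.44 with AGRP (exact permutation p = 0.366, adjusted p = 0.412). Without vehicle fetuses 2 and 3 the r with AGRP was 0.90, a value over 6 arrays with no test.

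**Figure D2:**
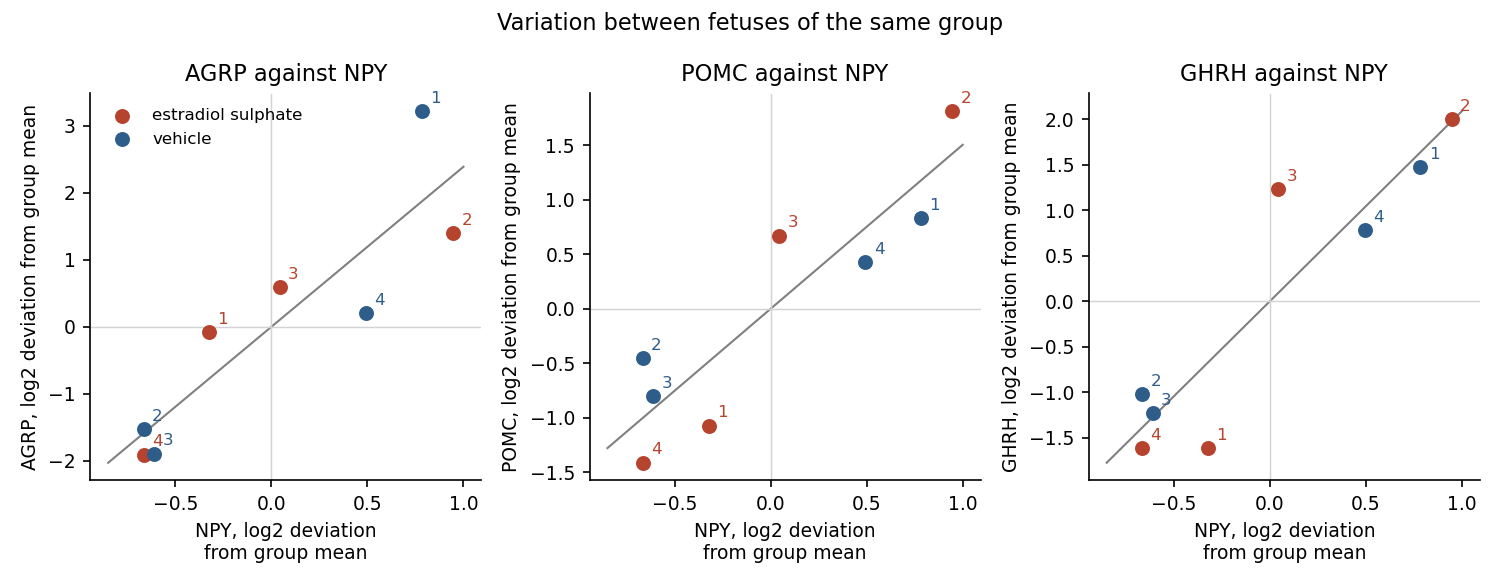
Deviation of each fetus from the mean of its group for AGRP, POMC and GHRH (vertical axes) against NPY (horizontal axes), in log2 units at the representative probe. Red points are estradiol sulphate fetuses and blue points vehicle fetuses, numbered by replicate, and grey lines have the pooled within-group slope. The 4 fetuses above their group mean for NPY (treated 2 and 3, vehicle 1 and 4) were above it for the other 3 genes too.

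The named genes whose pattern over the 8 arrays was most like that of NPY, after subtraction of group means, were NAMPT (r = 0.93), GHRH, NRG1 (r = 0.91), POMC and MET (r = 0.90). NAMPT is a rate-limiting enzyme of NAD synthesis, NRG1 a ligand of ErbB receptors, and MET the receptor of hepatocyte growth factor. AGRP stood 7th of 802 named genes for NPY, and 23rd among 11732 probes. For AGRP the most similar were FOS (r = 0.91), NPY (r = 0.89), HCRTR2 (r = 0.88), NAMPT (r = 0.87) and MET (r = 0.84). FOS is an immediate early gene and HCRTR2 encodes the orexin receptor 2. The other 3 FOS probes read -5.35 or lower on average in both groups, near background, and the gene is therefore uncertain. Of all probes, 1.08% had r of at least 0.8 with NPY and 0.631% with AGRP, and no p is attached to these values, since the 8 arrays are shared.

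The rest of the feeding circuit was taken from 5 lists of 136 genes, of which 45 were named on the array and 33 besides NPY and AGRP were tested. None passed limma's Benjamini-Hochberg adjusted p of 0.05, against 0% of all probes. At an unadjusted p under 0.05, 2 of the 33 were higher (FTO and GHRL) and 1 was lower (ASIP), against 9.17% of all 11748 probes in either direction. GHRL passed the filter on dim probes through the treated group alone, so its direction was fixed by the filter and it lends nothing to that count. The median log2 difference of the 33 was 0.10, with 22 above 0 and 11 below, against 0.04 over all probes, of which 58.1% were above 0. Median scaling in place of the 75th percentile moved the median over all probes to -0.06.

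Among the 5 other signal peptides and processing enzymes tested, 4 were above 0. POMC differed by 1.28 ± 0.69 (SE; limma adjusted p = 0.628). PCSK1, the prohormone convertase that cleaves the POMC product, differed by 0.40 ± 0.38 (SE; limma adjusted p = 0.806), and CPE, the carboxypeptidase that trims peptides after that cleavage, by 0.23 ± 0.18 (SE; limma adjusted p = 0.749). PPY, which encodes pancreatic polypeptide of the NPY family, differed by 0.27 ± 0.16 (SE; limma adjusted p = 0.655), but by -0.15 with normexp and quantile normalization. ASIP, the agouti protein related to AGRP that blocks melanocortin receptors in skin, averaged 5.27 ± 0.16 in treated and 5.66 ± 0.22 in vehicle fetuses (SD, n = 4 each), with 3 of 4 treated fetuses below every vehicle fetus. Its difference of -0.40 ± 0.14 (SE) did not pass (limma adjusted p = 0.502). A second ASIP probe differed by -0.21 ± 0.15 (SE; limma adjusted p = 0.717), with 2 of 4 treated fetuses below every vehicle fetus.

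Of the receptors on the list only NPY1R, the Y1 receptor of neuropeptide Y, could be tested. It averaged -2.92 ± 0.14 in treated and -2.94 ± 0.08 in vehicle fetuses (SD, n = 4 each), a difference of 0.02 ± 0.12 (SE; limma adjusted p = 0.983). Its sign changed with the scaling, to -0.087 with median scaling, which moves nearly all differences by -0.10. NPY2R, the Y2 receptor on the NPY neurons themselves, was not well above background on any array. MC2R and MC5R were also too dim to be tested.

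Of the 10 hormone input genes tested, 6 were above 0 and 4 below, and none passed. LEPR and GHSR, the receptors of leptin and ghrelin, were not well above background on any array. GHRL, the ghrelin gene, averaged -5.47 in treated and -6.14 in vehicle fetuses but was well above background in all 4 treated and no vehicle fetus, so neither a fold nor a test is given. GHR, the growth hormone receptor, differed by 0.51 ± 0.26 (SE; limma adjusted p = 0.604), and IGF1R by 0.37 ± 0.31 (SE; limma adjusted p = 0.774). A second IGF1R probe differed by 0.46 ± 0.18 (SE; limma adjusted p = 0.515), and the probes disagreed on vehicle fetus 4, highest of all fetuses at the first and lowest at the second. THRB, a thyroid hormone receptor, differed by 0.11 ± 0.14 (SE; limma adjusted p = 0.851), but by -0.046 with cyclic loess normalization.

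Of the 9 energy-sensing genes tested, 5 were above 0 and 4 below, and FTO had the smallest unadjusted p. FTO, an RNA demethylase associated with body weight, read -1.10, -1.01, -0.71 and -1.10 in treated fetuses 1 to 4, against -1.67, -1.84, -1.52 and -1.40 in vehicle fetuses 1 to 4. All 4 treated fetuses lay above every vehicle fetus at both FTO probes, as they did for 3.29% of the 11748 probes tested, and nothing is read from it. The difference of 0.63 ± 0.14 (SE) did not pass (limma adjusted p = 0.372). FASN, the fatty acid synthase, differed by 0.25 ± 0.20, ISL1, a transcription factor of arcuate neurons, by 0.25 ± 0.27, and MTOR, a nutrient-sensing kinase, by -0.16 ± 0.14 (SE; limma adjusted p of 0.753, 0.832 and 0.794). The sign of MTOR turned with normexp, to 0.019.

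Other feeding systems had 6 of 8 tested genes above 0 and none that passed. GAL, the peptide galanin that stimulates feeding, differed by 1.02 ± 0.55 (SE; limma adjusted p = 0.624), with 3 of 4 treated fetuses above every vehicle fetus. A second GAL probe differed by 0.93 ± 0.55 (SE; limma adjusted p = 0.657), with 2 of 4 treated fetuses above every vehicle fetus. HCRTR2 differed by 0.36 ± 0.17 (SE; limma adjusted p = 0.579) and CRHR1, a receptor of corticotropin-releasing hormone, by 0.42 ± 0.27 (SE; limma adjusted p = 0.688), the last with 1 of 4 vehicle fetuses well above background. GRP, the gastrin-releasing peptide, differed by -0.35 ± 0.21 (SE; limma adjusted p = 0.659).

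**Figure D3:**
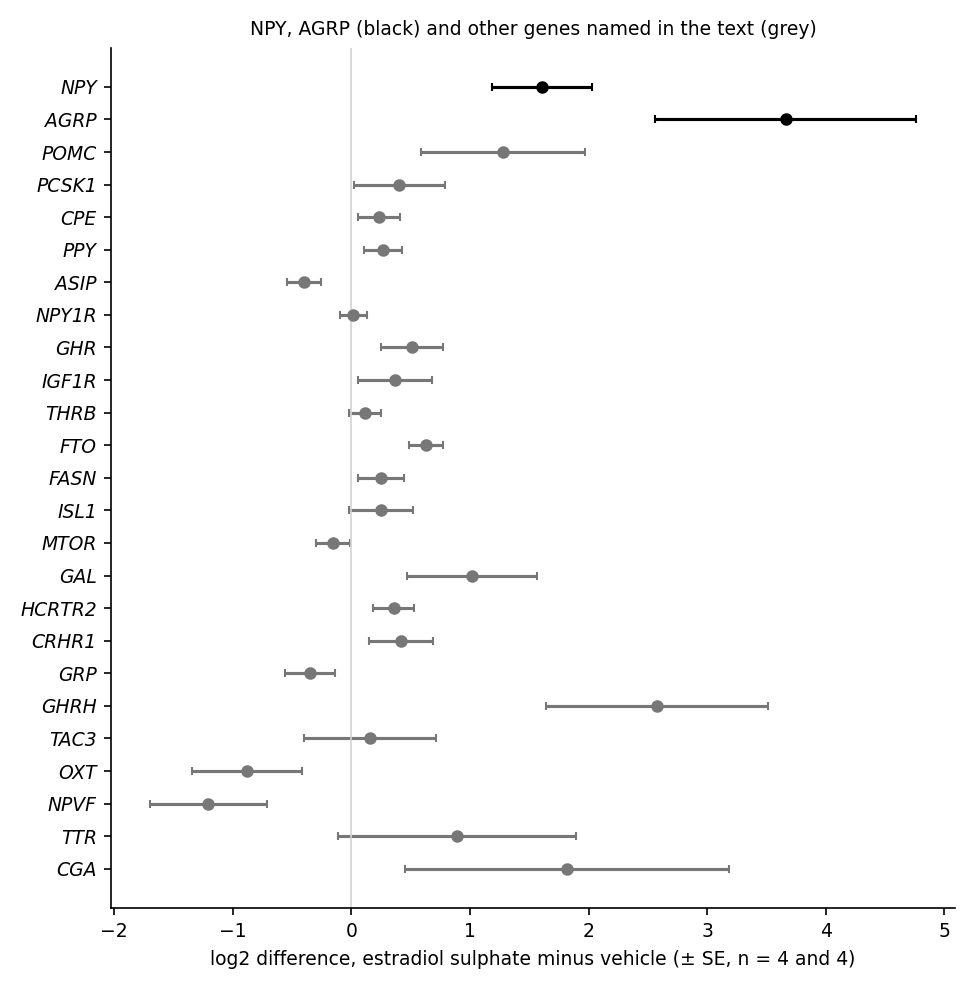
Log2 difference, estradiol sulphate minus vehicle, at the representative probe of NPY and AGRP (black) and of other genes named in the text (grey), with bars for the SE (n = 4 and 4). AGRP (3.66), GHRH (2.58), CGA (1.82) and NPY (1.61) lay farthest to the right, and of the grey genes none passed the adjusted threshold.

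Markers of arcuate and other cells were set beside these values. Of 8 arcuate neuron markers besides NPY and AGRP, 5 were named and 4 tested, 3 above 0 and 1 below, with a median difference of 0.72 and a summed relative level of 5.52 to 30.4 in treated fetuses, against 12.5 to 19.1 in vehicle fetuses. GHRH differed by 2.58 ± 0.94 (SE; limma adjusted p = 0.502). TAC3, the neurokinin B gene of another arcuate cell type, differed by 0.16 ± 0.56 (SE; limma adjusted p = 0.965), and its r within groups was 0.51 with NPY and 0.24 with AGRP. SST, the somatostatin gene and the 1 marker below 0, differed by -0.30 ± 0.44 (SE; limma adjusted p = 0.892), with r within groups of 0.44 with NPY and 0.22 with AGRP. SST was named after its value was seen. It averaged 3.53 in treated and 3.83 in vehicle fetuses, against 1.58 and 0.30 for POMC. SST is therefore the largest part of the summed level above, which does not describe POMC, GHRH or TAC3.

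Genes of other nuclei ran lower or mixed. Of 4 tested, 3 were below 0, while 58.1% of all probes were above 0. The differences ran from -1.59 (GNRH1) to 0.31 (PMCH), and none passed the adjusted threshold. GNRH1 and PMCH were named after their values were seen. The summed relative level was 3.03 to 13.4 in treated fetuses, against 9.20 to 15.9 in vehicle fetuses, most of it from OXT. OXT, of the paraventricular and supraoptic nuclei, differed by -0.88 ± 0.47 (SE; limma adjusted p = 0.621). NPVF, the peptide gene of the dorsomedial region, differed by -1.21 ± 0.49 (SE; limma adjusted p = 0.535). Within groups OXT had r = -0.51 with NPY and -0.30 with AGRP, while NPVF had 0.69 and 0.73.

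CGA and TTR mark tissue that borders the hypothalamus. CGA, the glycoprotein hormone subunit of the pars tuberalis and pituitary, read -4.55, -0.12, -2.63 and 0.55 in treated fetuses 1 to 4, against -2.83, -5.38, -5.46 and -0.34 in vehicle fetuses 1 to 4. It was highest in treated fetus 4, which was lowest for NPY and AGRP in its group, and its r was 0.52 with NPY (71st of 802 named genes) and 0.25 with AGRP. PRL differed by -0.40 ± 0.24 (SE; limma adjusted p = 0.663). The pituitary list (PRL, CGA and LHB) summed to 17.9 to 28.2 in treated fetuses, against 15.3 to 30.1 in vehicle fetuses. Nearly all of that sum is LHB, since CGA and PRL read far lower, so the sum does not describe CGA or PRL. TTR, the choroid plexus marker, ranged from -3.14 to 2.66 in treated fetuses, against -0.90 to -0.41 in vehicle fetuses, with r of -0.01 with NPY and -0.15 with AGRP. VIM, the 1 gene tested of the tanycyte and ependyma list, differed by -0.07 ± 0.12 (SE; limma adjusted p = 0.905). It averaged 5.49 in treated and 5.56 in vehicle fetuses, and which cells gave this signal was not tested.

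Glial and forebrain markers were mostly above 0. All 4 astrocyte markers tested were above 0, against 58.1% of all probes. Among them were SLC1A2 at 0.63 ± 0.24 and SLC1A3 at 0.43 ± 0.25 (SE; limma adjusted p of 0.515 and 0.650). Other SLC1A2 probes gave 0.76 ± 0.22 and 0.21 ± 0.17 (SE; limma adjusted p of 0.427 and 0.751). The list summed to 21.3 to 43.3 in treated fetuses, against 14.9 to 38.2 in vehicle fetuses, nearly all of it from GFAP and AQP4. The microglial marker ITGAM differed by 0.40 ± 0.26 (SE; limma adjusted p = 0.696), and LEF1, the only forebrain (thalamus) marker named, by 1.098 ± 0.15 (SE; limma adjusted p = 0.240), with 1 of 4 vehicle fetuses well above background, so that its difference rests largely on readings near background. A second LEF1 probe differed by 1.087 ± 0.54 (SE; limma adjusted p = 0.589), with 2 of 4 treated fetuses above every vehicle fetus. No oligodendrocyte or GABA gene of the lists was named. Of 10 oestrogen-responsive genes tested, 6 were above 0 and 4 below, against 58.1% of all probes above 0, and their median difference was 0.03. PGR, the progesterone receptor, differed by 0.69 ± 0.15 and VEGFA by 0.60 ± 0.26 (SE; limma adjusted p of 0.372 and 0.543), and OXT, given above, was the lowest at -0.88. PGR was well above background in 2 of 4 vehicle fetuses. The part of any of these markers in the NPY and AGRP differences was not tested.

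The treatment differences of NPY and AGRP kept their direction under every scaling, background correction and left-out fetus that was run. NPY ran from 1.29, without estradiol sulphate fetus 2, to 1.87, without vehicle fetus 1. AGRP ran from 2.62 to 4.74. The within-group r of the pair ran from 0.87 to 0.93 over the same alternatives, with exact permutation p of 0.00174 to 0.0347.

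**Figure D4:**
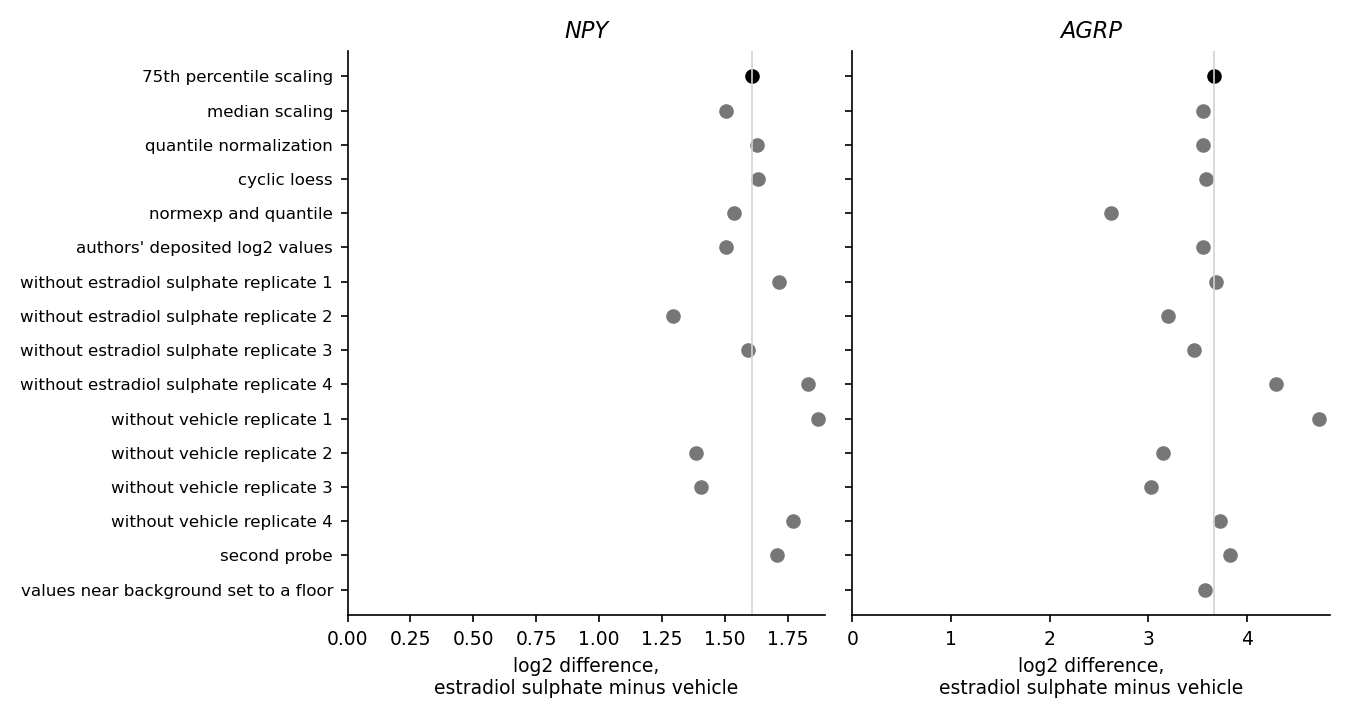
Log2 difference, estradiol sulphate minus vehicle, of NPY (left) and AGRP (right) under the 75th percentile scaling (black) and each alternative (grey). The floor for readings near background applies to AGRP alone. NPY stayed between 1.29 and 1.87 and AGRP between 2.62 and 4.74.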

How the data were processed

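Arrays were scanned in 1 colour (Cy3), and the deposited intensity of each spot comes from Agilent Feature Extraction 10.1.1.1, which subtracted background and detrended it within the array, per the file headers. The authors also deposited 1 table of log2 values, equal within 0.001 to log2 processed intensity less 1 offset per array in 99.7% of probes or more, where the basis of that offset was not stated. RNA had been stored for 7 years, per the labels.

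After removal of control and outlier spots, replicate spots were averaged per probe and log2 values were centred on the array's 75th percentile. Probes well above background on at least 4 of 8 arrays were tested (11748 kept, 3260 removed) with limma 3.58.1 in R 4.3.3 (group only, two-sided), Benjamini-Hochberg adjusted over all of them. SE are limma's. No probe was saturated. The number of arrays, 4 per group, limits the precision, and limma's p-values set a difference against the spread between these fetuses.

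Probe names came from the array design, updated through RefSeq (ARS-UI_Ramb_v3.0, names only), which named 1661 probes (11.1%). NPY matched by accession and AGRP by symbol alone. The probe with the highest mean signal stands for a gene. Members and lists were chosen with earlier results of these data known. The genes named are NPY and AGRP, 2 to 4 members of each list by smallest unadjusted p, a fixed set of feeding genes, and the 5 named genes most similar to each member. The co-variation test permuted arrays within groups, exactly, over 9 relations. Alternatives were other scalings, normexp with an offset of 50, other filters on dim probes, the deposited log2 values, left-out fetuses, a replicate or slide row block, a trended prior and the second probe, plus 3 chosen after seeing the data (a floor for AGRP readings near background, shared ranks for such readings, and adjustment over 7 relations). Limma and the permutation test were tested on simulated data.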

Additional observations from a re-analysis of the deposited data

Results flagged for a closer look

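In 7 of the 80 groups of 4 fetuses examined, 1 fetus lay far from the other 3, with a gap to the nearest of them above Dixon's 95% critical value. Chance gives this in about 1 in 20 groups. None was a reading of NPY or AGRP. Vehicle fetus 4 stood apart for CRHR1 (-6.62, the others -5.52 or higher), IGF1R at 1 of its probes (-2.82, the others -4.00 or lower), MTOR (3.67, the others 3.18 or lower) and VEGFA (-0.82, the others -1.54 or lower). That fetus also had the dimmest array, and without it IGF1R differed by 0.69. The CRHR1 reading lies below the lowest signal well above background on that array (-4.67), so its order among the others carries no weight. The second IGF1R probe put the same fetus lowest (-4.30). Estradiol sulphate fetus 2, the highest for NPY and AGRP, stood apart for ISL1 (-1.23, the others -2.14 or lower), and without it ISL1 differed by 0.01. FOS was low in estradiol sulphate fetus 4 (-0.24, the others -0.05 or higher), the fetus lowest for NPY and AGRP in its group. THRB was high in estradiol sulphate fetus 1 (-2.85, the others -3.16 or lower).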

How the results depend on the processing

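No probe passed limma's adjusted threshold in any of the 18 alternatives, and at an unadjusted p under 0.05 the split was 733 higher and 344 lower with the 75th percentile, but 345 and 753 with median scaling and 344 and 760 with the deposited values. Without a filter on dim probes it was 904 higher and 1185 lower, and leaving out a fetus gave 474 to 919 higher and 178 to 372 lower. A filter asking for all 8 arrays removed AGRP. Leaving out a fetus moved the NPY difference between 1.29 and 1.87, the AGRP difference between 3.03 and 4.74 and their within-group r between 0.87 and 0.93. With the replicate number as a replicate block, which is also the slide row, the differences stayed at 1.61 and 3.66 and 804 probes were higher and 354 lower before adjustment. Same-numbered fetuses correlated at -0.01 to 0.25. Not every pair was above 0.1 and the labels tie no number to a twin set, so the comparison has no block. Still, 6 of 8 fetuses were closest to their own number. Since the number is also the slide row, twin pairs and slide position cannot be told apart here.

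Sign changes were seen in genes close to 0. Median scaling and the deposited values move nearly all differences by the same -0.10 by construction, and NPY1R turns with that shift. NPY1R, at 0.02, became -0.087 with median scaling, -0.085 with quantile normalization, -0.123 with cyclic loess, -0.022 with normexp and -0.088 with the deposited values, and ran from -0.041 to 0.057 as each fetus was left out. With normexp MTOR became 0.019 and PPY -0.15, and with cyclic loess THRB became -0.046. The cause of the changes under the other settings was not tested. AGRP in vehicle fetuses 2 and 3 is limited by signal over background.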
